A study of Mus musculus with 12 samples.

Results

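The genes described here are 8 leukocyte adhesion molecules and integrins: the endothelial ligands Icam1, Icam2, Vcam1 and Selp, and the integrin subunits Itgb2, Itgam, Itgal and Itga4. They were chosen by gene symbol, and all 8 were found among the 25124 genes of both expression tables. Expression was measured by RNA sequencing of whole retinas from wild-type mice (C57BL/6 in the study) in 12 libraries, 2 in each of 6 groups. In the single-IOP series, the intraocular pressure (IOP) of 1 eye of 3-month-old or 18-month-old mice was raised to 30 mmHg for 1 h and the retinas were collected on day 2. The groups are 3-month-old IOP, 3-month-old control, 18-month-old IOP and 18-month-old control. In the repeated-IOP series, mice aged 3 months at the first treatment received 4 such elevations, given biweekly, and retinas were collected on day 2 after the last one (4xIOP and 4xIOP control). Controls were the untreated contralateral eyes, so treated retinas differ from controls by the needle in the anterior chamber as well as by pressure. The labels give no sex, and no animal number that ties a treated retina to its control.

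Leukocytes leave the blood in steps. P-selectin (Selp), stored in endothelial cells and platelets, lets passing leukocytes tether and roll, and activated leukocyte integrins then bind ICAM and VCAM proteins on the endothelial surface and hold the cell in place. Itgb2 encodes CD18, the shared beta chain that pairs with CD11b (Itgam) to form Mac-1 and with CD11a (Itgal) to form LFA-1, whose ligands include ICAM-1 and ICAM-2, while Itga4 encodes the alpha chain of VLA-4, which binds VCAM-1. In a healthy retina CD18 and CD11b are known as markers of resident microglia, and ICAM-1 and VCAM-1 are low and are raised by inflammatory cytokines.

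Depth lay between 39766230 and 59455054 tags per library, and between 44.2% and 71.5% of the tags were in exons. The unit throughout is FPKM, reads of a gene scaled to the length of its transcript and to the tags of its library. The tables of the 2 series were scaled separately, so levels are compared only within a series. In whole tissue, fewer cells of a type and less RNA per cell cannot be told apart. The 3-month-old and 18-month-old libraries also differed in kind: the median level of transcripts shorter than 1000 nt, divided by that of transcripts of at least 4000 nt, was 1.89 to 4.70 at 3 months and 1.2 to 1.36 at 18 months, and summed markers of retinal pigment epithelium were 74.0 to 221 FPKM at 3 months and 2.02 to 6.88 FPKM at 18 months. The part of either in the age comparisons was not tested. The study calls the libraries of a group biological replicates.

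Icam1 (NM_010493, chr9:21015940-21028814, plus strand, mm10) had the largest ratio between its highest and lowest single-IOP libraries among Icam1, Icam2 and Vcam1, the ligands with reads in every library. Its promoter is shown because it carries letters that are known as binding sites of cytokine-activated factors. The sequence is the RefSeq one (GRCm38.p6, chr9:21015690-21015989, plus strand), from 250 bases before the start site to 50 bases after it, and the capitals mark GGAAATTCC, a kappaB sequence bound by NF-kB, and then TTCNNNGAA, the GAS sequence bound by STAT dimers.
Icam1: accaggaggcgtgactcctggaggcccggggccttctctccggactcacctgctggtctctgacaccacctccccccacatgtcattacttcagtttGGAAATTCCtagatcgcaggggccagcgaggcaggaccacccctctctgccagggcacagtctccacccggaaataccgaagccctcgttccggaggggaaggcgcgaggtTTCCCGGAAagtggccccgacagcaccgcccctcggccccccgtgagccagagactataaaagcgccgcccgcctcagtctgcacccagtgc
The kappaB letters begin 153 bases before the start site and the GAS letters 42 bases before it, and they do not overlap. Both were searched on both strands. Of 32851 mouse promoters of this length, 0.317% hold the kappaB letters and 8.30% hold the GAS letters. Promoters were also at hand for Selp, Itgam and Itga4, and neither sequence is in these windows. Icam2, Vcam1, Itgal and Itgb2 had no entry.

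Icam1 was near its limit of measurement in young untreated retinas. It was at 0.113 and 0.049 FPKM (12 and 6 reads) in the 3-month-old control libraries and at 1.14 and 0.673 FPKM in the 3-month-old IOP libraries. At 18 months it was at 2.13 and 2.01 FPKM in controls and at 5.52 and 5.93 FPKM after IOP. The groups therefore stood in the order 3-month-old control, 3-month-old IOP, 18-month-old control and 18-month-old IOP, with no overlap between neighbours. In the repeated-IOP series the control libraries had 0.069 and 0.166 FPKM, and the 4xIOP libraries 4.17 and 3.41 FPKM.

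Vcam1 (NM_011693, chr3:116110020-116129688, minus strand), the ligand of VLA-4, was the most abundant of the 8 genes in every library on this per-length scale. It measured 2.50 and 3.67 FPKM in 3-month-old controls, 7.88 and 7.60 FPKM in 3-month-old IOP, 6.00 and 5.22 FPKM in 18-month-old controls and 13.7 and 18.6 FPKM in 18-month-old IOP libraries. It measured 2.07 and 2.43 FPKM in 4xIOP controls and 10.6 and 12.5 FPKM in 4xIOP retinas. Young retinas after a single IOP thus lay above old untreated ones for Vcam1, while for Icam1 they lay below them. Both IOP groups and the 4xIOP group were above their own controls.

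Icam2 (NM_010494, chr11:106377656-106382781, minus strand), an endothelial ligand of LFA-1 that is expressed without inflammatory stimulation, varied less. It was at 0.377 and 0.509 FPKM in 3-month-old controls and at 0.577 and 0.451 FPKM in 3-month-old IOP libraries, which overlap. It was at 1.23 and 0.720 FPKM in 18-month-old controls and at 1.47 and 0.949 FPKM in 18-month-old IOP libraries, which overlap as well. In the repeated series it was at 0.374 and 0.50 FPKM in controls and at 1.09 and 0.946 FPKM in 4xIOP retinas.

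Selp (NM_011347, chr1:164115264-164150026, plus strand) was all but undetected outside the 4xIOP retinas. In the 8 single-IOP libraries it was between 0 and 0.069 FPKM, and the 2 untreated retinas of the repeated series had no read. The 4xIOP libraries had 0.906 and 0.498 FPKM, from 174 and 72 reads. Against the level that 3 reads would give, 0.0214 FPKM as the mean over the 2 control libraries, the 4xIOP mean was at least 32.8-fold higher, a bound that covers counting error only. The 7 platelet markers summed to 13.6 and 11.2 FPKM in the same 4xIOP libraries and to 8.96 and 6.31 FPKM in their controls, and 1 of 2 tested was called higher, against 5.45% of all genes tested, the chemokine Pf4, from a control mean under 0.5 FPKM, at 7.12 and 2.84 FPKM against 0.086 and 0.243 FPKM. At 3 months after a single IOP the platelet sum was 12.2 and 12.3 FPKM against 7.01 and 8.20 FPKM in controls, and Selp had no read in those IOP libraries. Pf4 was at 2.34 and 1.98 FPKM there, against 0 and 0.718 FPKM in controls. In these controls and in the 4xIOP controls most of the sum came from other genes than Pf4. Gp9, a receptor subunit of platelets, was at 0 in both 4xIOP libraries, and the part of platelets in the Selp reads was not tested.

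Itgb2, the common beta chain (chr10:77530370-77565708, plus strand), was counted on NR_157229 in the single-IOP table and on NM_008404 in the repeated-IOP table, another reason to compare it only within a table. It was at 0.101 and 0.200 FPKM in 3-month-old controls, 1.55 and 0.679 FPKM in 3-month-old IOP, 0.943 and 1.37 FPKM in 18-month-old controls and 3.72 and 1.68 FPKM in 18-month-old IOP libraries. The 4xIOP controls had 0.106 and 0.083 FPKM and the 4xIOP retinas 5.07 and 3.99 FPKM. The 3-month-old IOP and 18-month-old control libraries overlapped, and every treated group was above its own control.

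Itgam, the CD11b chain (chr7:128062640-128118491, plus strand), followed Itgb2. It was at 0.497 and 0.460 FPKM in 3-month-old controls, 1.45 and 0.976 FPKM in 3-month-old IOP, 1.71 and 2.20 FPKM in 18-month-old controls, and 6.19 and 2.88 FPKM in 18-month-old IOP libraries. The first 18-month-old IOP library was high for both subunits and also had the larger summed level of 12 microglia markers, 252 FPKM against 113 FPKM in the second. In the repeated series Itgam was at 0.227 and 0.279 FPKM in controls and at 6.13 and 6.02 FPKM in 4xIOP retinas. The gene model Gm49368 overlaps Itgam on the same strand, so reads of the shared exons cannot be assigned with certainty.

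Itgal, the CD11a chain of lymphocytes and other leukocytes (NM_008400, chr7:127296260-127335137, plus strand), stayed between 0 and 0.112 FPKM in the single-IOP series. At 18 months it was at 0.112 and 0.084 FPKM after IOP (32 and 26 reads) and at 0.057 and 0.041 FPKM in controls (13 and 10 reads). These did not overlap, as was so for 36.5% of all genes tested, and Itgal itself was below the limit for testing. It was at 0.019 and 0.023 FPKM in 4xIOP controls, together 9 reads, and at 0.748 and 0.374 FPKM in 4xIOP retinas, together 300 reads. The ratio of the means was 26.7. Scaled to the tags, the ratio of the reads was 27.8 with an exact 95% binomial interval of 14.5 to 61.4, which covers counting error only.

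Itga4, the alpha chain of VLA-4 (NM_010576, chr2:79255426-79333114, plus strand), was the only member that was lower in old than in young control retinas. It measured 1.00 and 0.615 FPKM in 3-month-old controls and 0.460 and 0.940 FPKM in 3-month-old IOP libraries, against 0.079 and 0.227 FPKM in 18-month-old controls and 0.466 and 0.149 FPKM in 18-month-old IOP libraries. The control groups did not overlap, and the other pairs of groups of equal age or treatment did. In the repeated series it was at 0.652 and 0.431 FPKM in controls and at 1.77 and 1.29 FPKM in 4xIOP retinas.

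**Figure D1:**
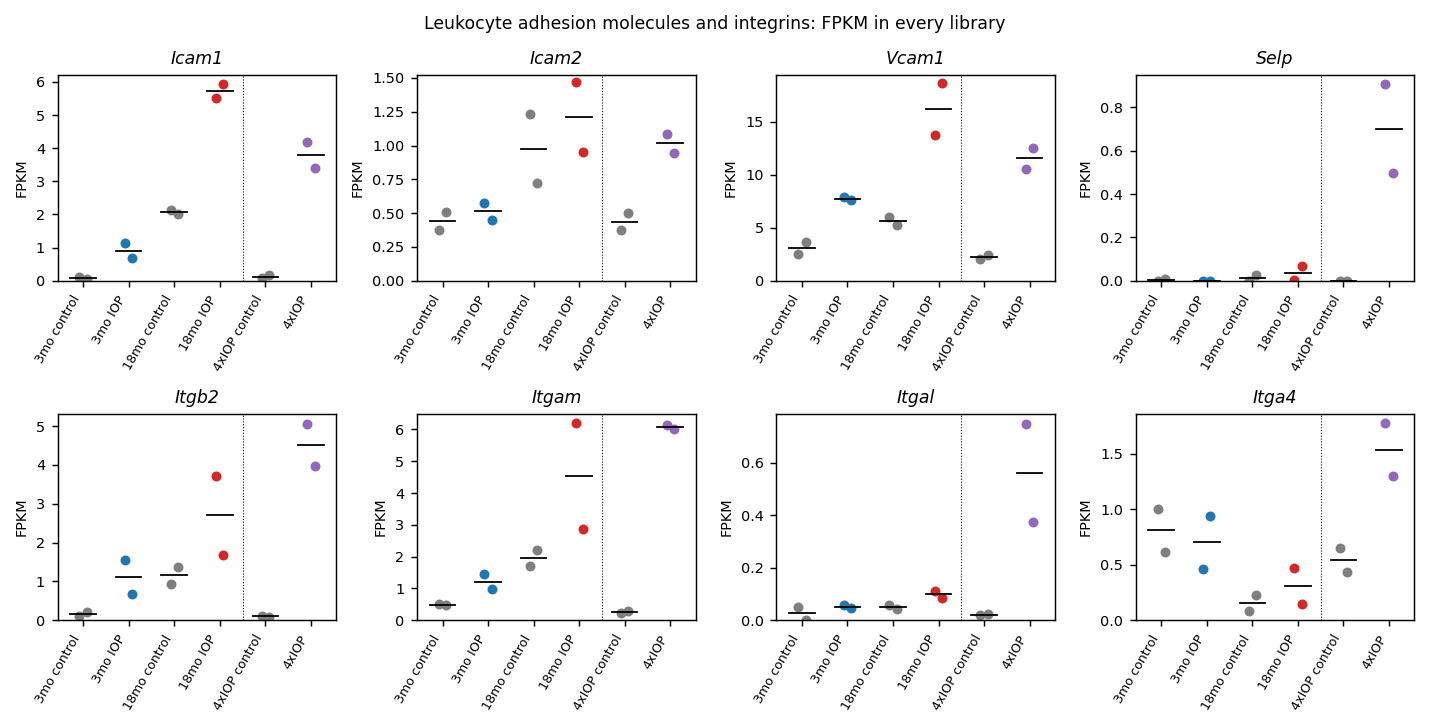
FPKM (y axis, linear, from 0) of the 8 genes in each of the 12 libraries, with the 6 groups along the x axis, 1 point per library and a bar at the group mean. A dotted line separates the 2 series, which were scaled separately. Vcam1 reaches 18.6 FPKM in an 18-month-old IOP library, and Selp and Itgal stand clear of 0 only in the 4xIOP retinas.

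Tests were run in limma on log2(FPKM + 0.5) for all genes whose mean in the series reached 0.5 FPKM. Calls required a Benjamini-Hochberg adjusted p no larger than 0.05 and a change of 1 or more, up or down, on the log2 scale. Fold changes on this scale understate the change of low genes. In the single-IOP series 5 members were tested (Icam1, Icam2, Vcam1, Itgam and Itgb2), with Itga4 just under the limit at a mean of 0.492 FPKM and Selp and Itgal at 0.013 and 0.056 FPKM. In the repeated-IOP series 6 were tested, with Itga4 added and Selp and Itgal at 0.351 and 0.291 FPKM. With 2 libraries against 2, an exact permutation test of a single gene cannot give a two-sided p below 0.333.

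The first question was whether a single mild IOP elevation moved these genes. At 3 months Icam1 was 11.2 times and Vcam1 2.51 times its control mean, but no tested member was called. The log2 fold change was 1.26 ± 0.22 (SE, limma adjusted p = 0.0605) for Icam1, 1.22 ± 0.22 (limma adjusted p = 0.0671) for Vcam1, 1.26 ± 0.38 (limma adjusted p = 0.280) for Itgb2 and 0.79 ± 0.33 (limma adjusted p = 0.536) for Itgam. Icam2 differed by 0.11 ± 0.27. Called higher were 0 of 5 members, against 0.568% of all 13731 genes tested, and 4 of the 5 stood above their controls with no overlap, against 28.6% of all genes tested. Those 4 were higher at an unadjusted limma p under 0.05, against 8.28% of all genes tested, and voom on the recovered reads called 0 of 5 as well. Without 3-month-old control replicate 1 the Icam1 ratio was 18.5, and without 3-month-old IOP replicate 1 the Itgb2 ratio was 4.51 in place of 7.40. Of the 5 members 4, all but Vcam1, had 3-month-old control means under 0.5 FPKM and reached the limit for testing through other groups, so nothing is read from these counts. Whether Icam1 was called depended on the settings: a smaller pseudocount, removing the length trend or leaving out the variance trend each called it (limma adjusted p = 0.0252, 0.0425 and 0.0471).

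At 18 months the same 4 genes stood above their controls, with 0 of 5 called higher, against 0.117% of all genes tested, and 4 of 5 not overlapping, against 36.5%. Vcam1 was 2.89 times its control mean, which is 1.44 ± 0.22 on the log2 scale (limma adjusted p = 0.0824), and Icam1 2.76 times, 1.27 ± 0.22 (limma adjusted p = 0.0985). Itgam differed by 0.96 ± 0.33 (limma adjusted p = 0.327) and Itgb2 by 0.89 ± 0.38 (limma adjusted p = 0.507), with the 2 IOP libraries far apart. The same 4 were higher at an unadjusted limma p under 0.05, against 8.71% of all genes tested, and voom called 0 of 5. Without the first IOP library the ratio to control was 1.47 for Itgam and 1.45 for Itgb2, in place of 2.32 and 2.34. The median was 0.96 over the 5 members and 0.09 over all tested genes. Vcam1 was called once the first 18-month-old IOP library was left out, at 1.65 (limma adjusted p = 0.0369).

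No microglia marker of 11 tested was called after IOP at either age. Of all genes tested 0.568% were called higher at 3 months and 0.117% at 18 months, so this is no result about the list. Of the 11 markers 2 had 3-month-old control means under 0.5 FPKM. At 3 months 10 of the 11 stood above their controls with no overlap, against 28.6% of all genes tested, and at 18 months 3 of 11, against 36.5%. Their sum was 32.2 and 47.9 FPKM in 3-month-old controls and 99.7 and 84.4 FPKM after IOP, and 89.1 and 99.2 FPKM in 18-month-old controls and 252 and 113 FPKM after IOP. The endothelial sum was 16.7 and 12.8 FPKM in 3-month-old controls and 20.0 and 16.2 FPKM after IOP, and 73.2 and 73.3 FPKM in 18-month-old controls and 104 and 97.5 FPKM after IOP. None of 11 endothelial markers was called at either age, beside the same 0.568% and 0.117%. Of these 11, 5 had 3-month-old control means under 0.5 FPKM. Kdr alone was at 30.2 and 28.4 FPKM in 18-month-old controls and at 45.2 and 52.9 FPKM after IOP, while the median log2 fold change of the 11 was 0.07, beside 0.09 over all tested genes. Relative to that sum Icam1 was 0.678% and 0.384% in 3-month-old controls and 5.71% and 4.16% after IOP, and Vcam1 15% and 28.7% against 39.4% and 47%. At 18 months Icam1 was 2.91% and 2.75% in controls and 5.28% and 6.08% after IOP, and Vcam1 8.19% and 7.12% against 13.1% and 19.1%. The part of these cells in the differences was not tested.

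Whether the response to IOP differed between the ages was tested as an interaction. None of the 5 members passed (limma adjusted p = 1.00 for each), and neither did any of the 13731 genes, 0% of those tested, of which 1.59% had an unadjusted p under 0.05, the members not among them. Voom called 0 genes as well. The interaction was 0.02 ± 0.31 for Icam1, 0.22 ± 0.31 for Vcam1, 0.17 ± 0.46 for Itgam and -0.37 ± 0.53 for Itgb2, on the log2 scale with positive values for a larger response at 18 months. For Icam1 the ratio to control was 11.2 at 3 months and 2.76 at 18 months, and the sign of the interaction was not stable: it was -1.97 with voom on the recovered reads, -0.054 with size factors and -0.23 to 0.26 with a library left out. That of Itgb2 kept its sign in the alternatives with every library but was -1.13 with a pseudocount of 0.1 and -1.65 with voom.

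The comparison by age without treatment showed Icam1 25.6 times higher in 18-month-old than in 3-month-old control retinas, with Itgb2 7.67 times and Itgam 4.09 times higher. The Icam1 ratio was 42.3 without 3-month-old control replicate 1, which leaves 6 reads to divide by. All 3 were called, with log2 fold changes of 2.15 ± 0.22 (limma adjusted p = 0.00301), 1.34 ± 0.38 (limma adjusted p = 0.0229) and 1.32 ± 0.33 (limma adjusted p = 0.0149). Vcam1 passed the adjusted p but not the fold, at 0.78 ± 0.22 (limma adjusted p = 0.0232), and Icam2 passed neither, at 0.63 ± 0.27 (limma adjusted p = 0.0851), though with the transcript length trend removed Icam2 was called, at 1.18 (limma adjusted p = 0.0121). Called higher were 3 of 5 members, against 11.6% of all genes tested, and all 5 were above the young controls with no overlap, against 45.7%. The 3 called members had young control means under 0.5 FPKM and reached the limit for testing through other groups, so nothing is read from their count and their p-values are given as a description. With 1 library left out Itgam was called only without 3-month-old control replicate 1. Itgb2 lost its call with each library left out (limma adjusted p = 0.0631 to 0.123) and with the replicate block (limma adjusted p = 0.0525). Vcam1 was called without 3-month-old control replicate 2. Itga4, untested at this limit, was 0.190 times its young level (0.0978 times without 18-month-old control replicate 2), and with a limit of 0.1 FPKM its log2 fold change was -1.0 (limma adjusted p = 0.0293), just short of the fold required.

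Between treated retinas of the 2 ages, Icam1 was 6.31 times, Itgam 3.74 times and Vcam1 2.09 times higher at 18 months. These 3 rose, by 2.17 ± 0.22 (limma adjusted p = 0.00206), 1.49 ± 0.33 (limma adjusted p = 0.0119) and 1.00 ± 0.22 (limma adjusted p = 0.0123) on the log2 scale. Itgb2, at 0.96 ± 0.38 (limma adjusted p = 0.0701), and Icam2, at 0.74 ± 0.27 (limma adjusted p = 0.0550), did not pass. Icam2 was called with the length trend removed, at 1.32 (limma adjusted p = 0.00990), and Itgb2 without 18-month-old IOP replicate 2, at 1.44 (limma adjusted p = 0.0372). The Itgb2 ratio of 2.42 was 3.97 without 3-month-old IOP replicate 1 and 1.51 without 18-month-old IOP replicate 1. Called higher were 3 of 5 members, against 10.2% of all genes tested, and all 5 were above the young treated retinas with no overlap, against 43.2%. Without the first 18-month-old IOP library the Itgam ratio was 2.37. With 1 library left out Itgam was called only without 18-month-old IOP replicate 2 and Vcam1 only without 18-month-old IOP replicate 1. Vcam1 sat at the fold limit and was under it in 4 of the 12 alternatives that kept every library. Leaving out either 3-month-old IOP library left Icam1 as the only call.

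Endothelial and microglia markers moved with age in the same libraries. The summed level of 12 endothelial markers was 12.8 to 20.0 FPKM at 3 months and 73.2 to 104 FPKM at 18 months, with 8 of 11 tested markers called higher in controls, against 11.6% of all genes tested, 4 of them from young means under 0.5 FPKM, among the 8 Cldn5, the claudin of the blood-retinal barrier, from 0.988 and 0.622 FPKM to 11.6 and 11 FPKM. Relative to that sum, Icam1 was 0.384% and 0.678% in 3-month-old controls and 2.75% and 2.91% in 18-month-old controls, whereas Vcam1 was lower at 18 months, 7.12% and 8.19% against 15% and 28.7%. The summed microglia markers were 32.2 and 47.9 FPKM in 3-month-old controls and 89.1 and 99.2 FPKM in 18-month-old controls, with 5 of 11 tested markers called higher, against the same 11.6%, and 1 of the 5, Cx3cr1, from a young mean under 0.5 FPKM. Relative to this sum, Itgb2 was 0.314% and 0.418% at 3 months and 1.06% and 1.38% at 18 months, and Itgam 0.961% and 1.55% against 1.92% and 2.22%. In treated retinas the shares of the 2 ages overlapped for Icam1 (5.71% and 4.16% at 3 months, 5.28% and 6.08% at 18 months) and for Itgb2 (1.55% and 0.804%, 1.48% and 1.49%). They did not overlap for Vcam1 (39.4% and 47.0% at 3 months, 13.1% and 19.1% at 18 months) or for Itgam (1.45% and 1.16%, 2.46% and 2.56%). The part of more endothelial or microglial RNA in the higher levels of these genes was not tested.

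The last comparison asked what 4 elevations did to young retinas. Itgb2 was 47.9 times, Icam1 32.3 times, Itgam 24.0 times and Vcam1 5.13 times higher in 4xIOP than in 4xIOP control retinas, and the Icam1 ratio was 54.9 without 4xIOP control replicate 2, which leaves 7 reads to divide by. These 4 of the 6 tested members were called higher, against 5.45% of all 13718 genes tested, and all 6 lay above their controls with no overlap, against 27.7%. Icam1, Itgam and Itgb2 had control means of 0.118, 0.253 and 0.0945 FPKM and reached the limit of 0.5 FPKM only through the 4xIOP libraries, so nothing is read from the count, and their p-values are given as a description. Vcam1, with a control mean of 2.25 FPKM, was above the limit in both groups. The log2 fold change was 3.13 ± 0.20 (limma adjusted p = 6.26e-07) for Itgam, 3.07 ± 0.22 (limma adjusted p = 1.58e-06) for Itgb2, 2.80 ± 0.23 (limma adjusted p = 4.18e-06) for Icam1 and 2.13 ± 0.20 (limma adjusted p = 1.36e-05) for Vcam1. Itga4 was 2.83 times its control, at 0.96 ± 0.24 on the log2 scale (limma adjusted p = 0.0262), just under the fold required. It was called in 3 of 10 alternatives with every library and, of the fits with a library left out, only without 4xIOP control replicate 1. Icam2 was 2.33 times, 0.70 ± 0.25 (limma adjusted p = 0.134).

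Selp and Itgal entered the test only with a limit of 0.1 FPKM or with none. With a limit of 0.1 FPKM both were called, at 1.24 (limma adjusted p = 0.00899) and 1.00 (limma adjusted p = 0.0263). Without a limit both were called as well (limma adjusted p = 0.0225 and 0.0454). They passed the limit of 0.1 FPKM through the 4xIOP libraries alone, so these p-values are a description as well.

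**Figure D2:**
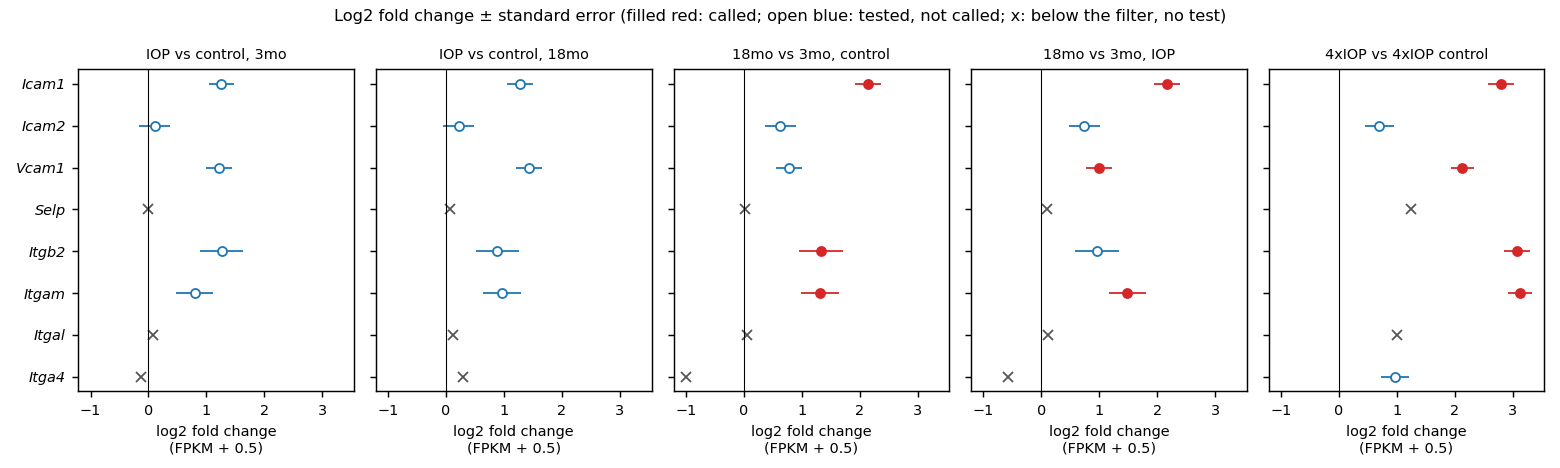
Log2 fold change on the FPKM + 0.5 scale (x axis) of the 8 genes (y axis) in 5 comparisons, first group against second as named above each panel. Points with bars are the limma estimate ± 1 standard error, filled red where called and open blue where not, and crosses are members below the limit for testing. The fold changes of Itgam and Itgb2 exceed 3 in the 4xIOP panel, and Itga4 lies left of 0 in both age panels.

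Markers of leukocytes other than microglia were measured beside these genes. In 4xIOP retinas 10 monocyte and macrophage markers summed to 33.0 and 17.4 FPKM, against 3.28 and 2.01 FPKM in their controls, with Ccr2, the chemokine receptor of inflammatory monocytes, at 4.18 and 3.03 FPKM against 0.014 and 0.013 FPKM. The 6 of 7 tested that were called higher all had control means under 0.5 FPKM, so nothing is read from the count. Of 10 neutrophil markers, summing to 38.0 and 47.4 FPKM against 3.12 and 2.24 FPKM, S100a8 and S100a9 together made up most of the 4xIOP sum, and both were called from control means under 0.5 FPKM. Of the others in 4xIOP, Cxcr2 was at 0.943 and 0.895 FPKM against 0 in both controls, Ly6g was at 0.039 and 0 FPKM, and the granule genes Camp and Ngp were at 0 in both libraries. The 13 lymphocyte markers summed to 2.05 and 0.794 FPKM against 0.242 and 0.140 FPKM, and none reached the limit for testing. In the single-IOP libraries the neutrophil sum was higher after IOP with no overlap at both ages, as were 28.6% of all genes tested at 3 months and 36.5% at 18 months. It was 4.06 and 3.3 FPKM against 2.70 and 2.30 FPKM at 3 months and 4.06 and 5.01 FPKM against 1.80 and 2.22 FPKM at 18 months. In each of these libraries 3 to 8 of the 10 markers were at 0. None of 3 tested markers was called, beside 0.568% and 0.117% of all genes tested called higher. The sums of monocytes and macrophages (3.79 to 15.3 FPKM) and of lymphocytes (0.406 to 0.827 FPKM) overlapped between IOP and control at both ages. Lens markers at 18 months summed to 5.67 and 20.3 FPKM after IOP and 2.92 and 4.21 FPKM in controls, with 4 of 4 tested not overlapping, against 36.5% of all genes tested, and none called. The part of these cells in the single-IOP differences was not tested.

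The summed microglia markers were 117 and 126 FPKM in 4xIOP and 18.3 and 18.2 FPKM in 4xIOP controls, with 8 of 10 tested called higher, against 5.45% of all genes tested, 2 of them from control means under 0.5 FPKM. Itgam was 5.24% and 4.78% of this sum in 4xIOP retinas and 1.24% and 1.53% in their controls. Itgb2 was 4.33% and 3.17% in 4xIOP and 0.578% and 0.456% in controls. Both subunits therefore stood higher against this sum in 4xIOP retinas than in their controls, which need not hold against each marker. On the log2 scale the median change of the 10 tested markers was 1.94. C1qb, Aif1 and C1qa changed by 3.68, 3.46 and 3.33. After a single IOP Itgam was at 1.16% and 1.45% of the sum at 3 months, within the range of its controls, and at 2.46% and 2.56% at 18 months, above the 1.92% and 2.22% of its controls. Itgb2 was at 1.55% and 0.804% after IOP at 3 months, above the 0.314% and 0.418% of its controls, and at 1.48% and 1.49% at 18 months, above the 1.06% and 1.38% of its controls.

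The endothelial sum was 63.0 and 65.7 FPKM in 4xIOP and 31.4 and 39.0 FPKM in controls, and 1 of 9 tested endothelial markers, the VEGF receptor Kdr, was called higher, against 5.45% of all genes tested. Kdr made up much of the sum and of its difference, at 33.1 and 44.3 FPKM in 4xIOP and 14.7 and 19.1 FPKM in controls. Icam1 was 6.62% and 5.19% of that sum in 4xIOP retinas against 0.220% and 0.425% in controls, and Vcam1 16.8% and 19.0% against 6.60% and 6.22%. Lens markers summed to 47.7 and 109 FPKM in 4xIOP and to 4.58 and 0.523 FPKM in controls, with 5 of 5 tested called higher, against the same 5.45%, 3 of them from control means under 0.5 FPKM, and pigment epithelium markers summed to 3.24 and 6.32 FPKM against 23.9 and 32.8 FPKM. The part of infiltrating cells, of resident microglia and of tissue carried along at dissection in the higher levels was not tested.

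**Figure D3:**
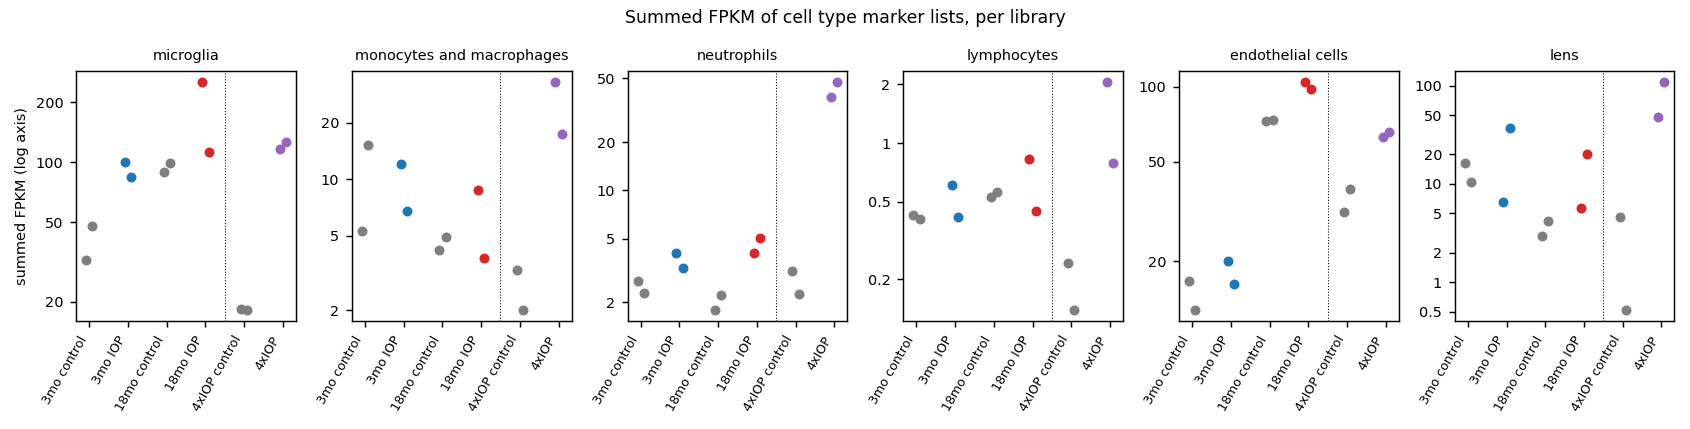
Summed FPKM (y axis, logarithmic, a separate scale in each panel) of 6 lists of cell type markers in each library, with the groups along the x axis and 1 point per library. Levels are comparable only within a series: within the repeated one the neutrophil and monocyte sums of 4xIOP stand above the controls, and within the single-IOP one the endothelial sum is higher at 18 months than at 3 months.

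**Figure D4:**
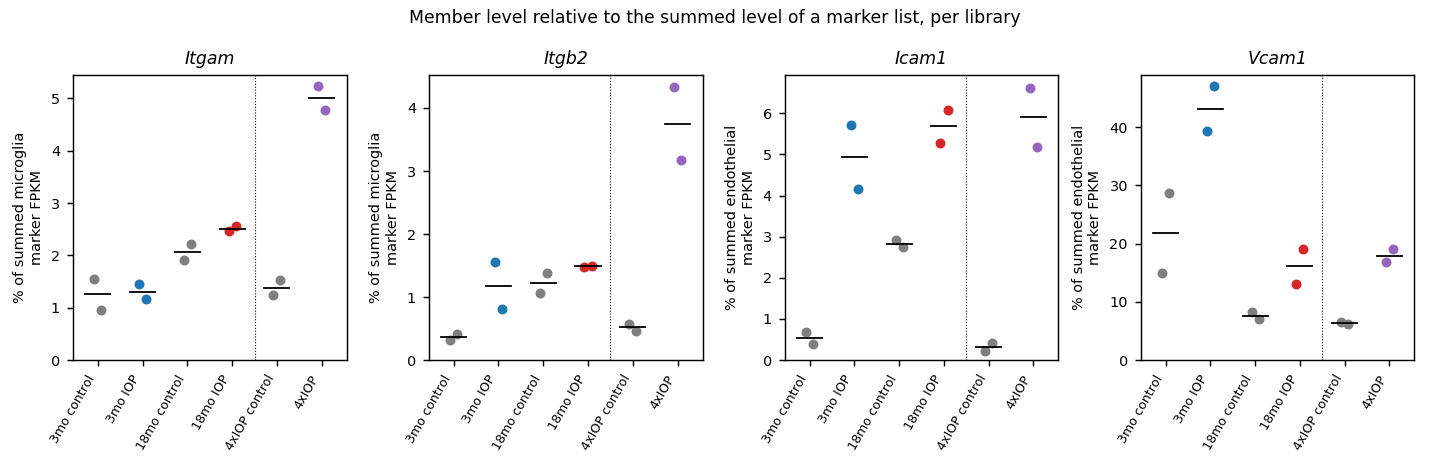
Level of Itgam and Itgb2 as a percentage of the summed microglia markers, and of Icam1 and Vcam1 as a percentage of the summed endothelial markers (y axes, linear, from 0), per library with a bar at the group mean. Itgam is at 4.78% and 5.24% in the 4xIOP libraries and at 1.24% and 1.53% in their controls.

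The rest of the adhesion cascade was followed in 6 lists. Their counts stand beside 11.6% of all tested genes called higher with age in controls and 5.45% in 4xIOP retinas, and beside 0.568% and 0.117% after a single IOP at 3 and 18 months, and genes with control means under 0.5 FPKM passed the limit only through the higher groups. Of 11 further endothelial ligands and selectins, 5 were tested in the repeated series and 3 were called higher in 4xIOP retinas, median 1.17: Vwf, the platelet-binding protein stored with P-selectin, at 1.56 ± 0.35 (limma adjusted p = 0.0130), Cd34 at 1.21 ± 0.20 (limma adjusted p = 0.00153) and Mcam at 1.17 ± 0.21 (limma adjusted p = 0.00243). E-selectin (Sele), below the limit, was at 0.295 and 0.580 FPKM against 0 in both controls. Between 18-month-old and 3-month-old controls 4 of 6 were called higher and 1 lower. The higher ones included Vwf at 2.08 ± 0.28 (limma adjusted p = 0.00484). Its young mean was 0.05 FPKM, under the limit, so this p-value is a description. The lower one was Alcam at -1.59 ± 0.56 (limma adjusted p = 0.0465). A single IOP called none of the 6 at either age, which at those shares is no result about the list. Glycam1, a mucin that binds selectins, had the smallest p at 3 months, 2.09 ± 0.42 (limma adjusted p = 0.0901), with 3.78 and 3.92 FPKM against 0.540 and 0.503 FPKM.

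Of 9 selectin ligands and related genes of leukocytes, all 5 tested were called higher in 4xIOP retinas, 2 of them, Selplg and Gcnt1, from control means under 0.5 FPKM. Cd44, the hyaluronan receptor that also binds selectins and is carried by glia as well as leukocytes, rose by 3.14 ± 0.25 (limma adjusted p = 2.96e-06). Selplg, the P-selectin ligand, was at 3.17 and 2.26 FPKM against 0.339 and 0.482 FPKM. Cd44 was also the only gene of the 6 lists called after a single IOP at 18 months, a call lost in 7 of 12 alternatives with every library and in 3 of 4 with a library left out. It went from 3.23 and 2.96 FPKM to 12.8 and 19.7 FPKM, which is 2.19 ± 0.23 on the log2 scale (limma adjusted p = 0.0443). With age in controls, Selplg and Cd44 were called higher and Cd24a lower, at -2.08 ± 0.27 (limma adjusted p = 0.00484).

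Integrin activation machinery, the 21 genes for adaptors, kinases and GTPases that switch leukocyte integrins on or signal from them, had 11 of 17 tested genes called higher in 4xIOP retinas and none lower, but 9 of the 11 had control means under 0.5 FPKM, so nothing is read from the count. The adaptor Skap2, above the limit in both groups, rose by 1.96 ± 0.20 (limma adjusted p = 2.35e-05). With age in controls 2 of 11 were called higher, Tln1 (talin) and Cyth1, and 1 lower, Itgb1bp1. After a single IOP none of 11 was called at either age, with medians of 0.31 at 3 months and 0.41 at 18 months beside 0.14 and 0.09 over all tested genes. Of 7 other leukocyte integrin subunits 2 were tested in the repeated series, and Itgax (CD11c, another partner of CD18) was at 0 and 0.018 FPKM in controls and at 0.937 and 1.11 FPKM in 4xIOP retinas, which alone carried it past the limit.

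Of molecules of transmigration and endothelial junctions, 4 of 10 tested genes were called higher in 18-month-old controls and 2 of 9 in 4xIOP retinas, with medians of 0.78 and 0.43. Pecam1, which guides leukocytes through junctions, rose with age by 2.05 ± 0.19 (limma adjusted p = 0.00265). Cdh5 (VE-cadherin) differed by 2.03 ± 0.27 (limma adjusted p = 0.00484). The young mean of Cdh5 was 0.1205 FPKM, under the limit, so its p-value is a description. In 4xIOP retinas the 2 were Cd47, the ligand of SIRP-alpha, at 1.63 ± 0.22 (limma adjusted p = 0.000280), and F11r (JAM-A), at 1.00 ± 0.22 (limma adjusted p = 0.00993). Matrix integrin subunits, which bind extracellular matrix and are not particular to leukocytes, had 3 of 8 called higher with age in controls (Itgb5, Itga7 and Itga6) and 2 of 7 in 4xIOP retinas (Itga6 and Itgb8). Itga7 and Itga6 had young control means of 0.3995 and 0.312 FPKM, under the limit, so nothing is read from the count with age. Differences between the lists were not tested.

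**Figure D5:**
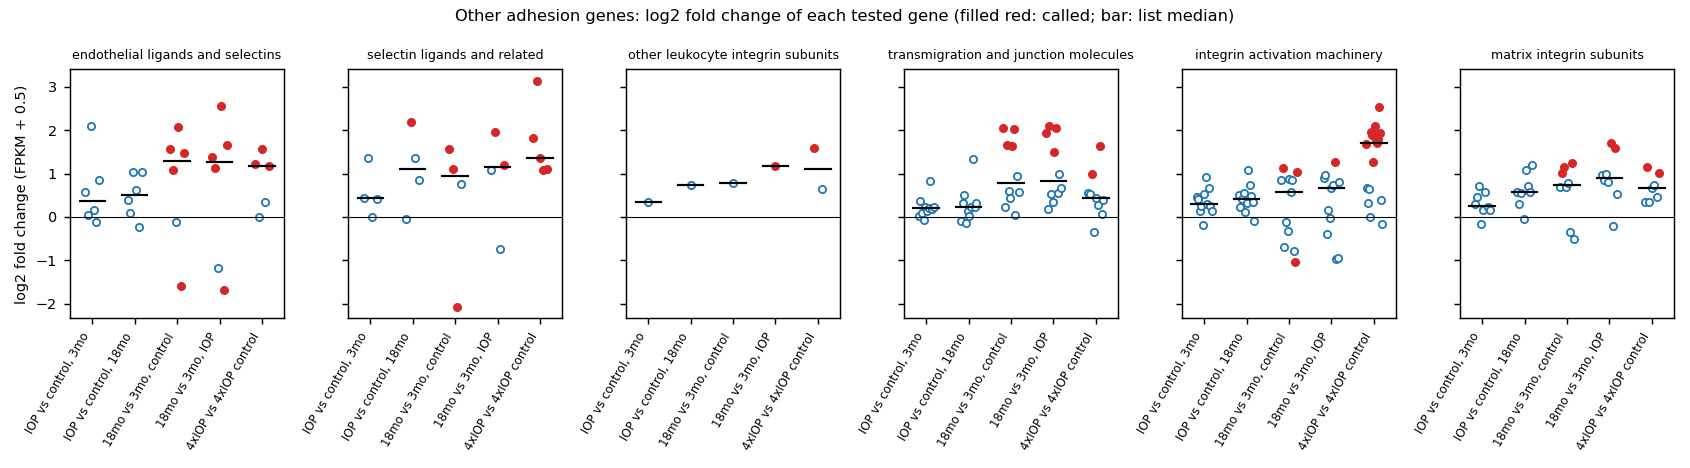
Log2 fold change on the FPKM + 0.5 scale (y axis) of each tested gene of the 6 lists in 5 comparisons (x axis), filled red where called and open blue where not, with a bar at the list's median. Integrin activation genes have medians of 0.31 and 0.41 after a single IOP; 9 of their 11 calls in the 4xIOP comparison are genes with control means under 0.5 FPKM.

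Across the 8 single-IOP libraries, log2 levels of Itgam and Itgb2 had a Pearson r of 0.961 and those of Icam1 and Itgam of 0.947, while the lowest value among the 10 pairs of tested members was 0.641, for Icam2 and Vcam1. These are descriptions over libraries that share 2 ages and 2 treatments. The genes most like Itgam were Ptprc (CD45, r = 0.994), Lair1 and Fermt3 (kindlin-3, an integrin activator), and those most like Itgb2 were Htr3a, Ctss and Mpeg1. For Icam1 they were Mxra7 (r = 0.998), Necap2 and Gnai2, for Vcam1 4931406C07Rik, Gna14 and Rras, and for Icam2 Fam107a, Bmpr1b and Wwox, all with r of at least 0.965 over 8 libraries.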

How the data were processed

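Per the labels and the study's methods, poly(A) RNA of single retinas was made into strand-specific TruSeq libraries, aligned to mm10 with STAR 2.7.8a, and counted in exons with HOMER, uniquely mapped tags on the transcribed strand and 1 isoform per locus. The authors deposited FPKM, scaled to isoform length and library tags, in separate tables for the 2 series, with replicates not pooled and no further normalization. Since FPKM times length is a whole number of reads over the tags, the tags were recovered, and at least 99.975% of the checked values of each library came to whole reads within 0.1 read. A library has between 39766230 and 59455054 tags, so 3 reads of a member, taken as the limit of measurement, are worth 0.00515 to 0.0591 FPKM.

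Groups came from the labels. Values were taken as log2(FPKM + 0.5), and genes whose mean reached 0.5 FPKM entered limma 3.58.1 (lmFit, then eBayes using trend; R 4.3.3). The 4 single-IOP groups shared a model of 13731 genes (residual degrees of freedom 4, prior 4.12), and the repeated-IOP libraries had their own, of 13718 genes (2 and 10.6). The study used a count model, which needs counts, and voom on the recovered reads was run as an alternative. Adjusted p-values are Benjamini-Hochberg values over all genes tested in a comparison. For the interaction no fold was required. Intervals of read ratios are exact binomial ones over pooled reads.

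The members, the 6 lists of adhesion genes and the 11 lists of cell type markers, written from general knowledge, were chosen with earlier results of these data known. Named from each list were up to 3 called genes with the largest change per comparison, or the gene with the smallest p; some list genes are not reported here. Other genes named with FPKM (platelet, neutrophil and endothelial selectin genes below the limit) were chosen after their values were seen. For each tested member the 3 genes with the highest Pearson r of log2(FPKM + 0.5) over the single-IOP libraries were named. Of the marker lists not described elsewhere, red blood cell markers summed to 166 and 426 FPKM in 18-month-old controls and 54.3 and 44.3 FPKM after IOP. None of 5 was called, and their median log2 fold change was -2.37, beside 0.09 over all tested genes. At 3 months they summed to 19.6 and 262 FPKM in controls and 29.4 and 313 FPKM after IOP, so libraries of a group differed widely. Retinal neuron markers summed to 4293 and 6466 FPKM in 4xIOP and 8680 and 9160 FPKM in its controls, to 19700 and 22540 FPKM in 3-month-old and 16670 and 15090 FPKM in 18-month-old controls, and to 20500 and 19710 FPKM in 3-month-old and 11460 and 13270 FPKM in 18-month-old IOP retinas. Muller glia and astrocyte markers summed to 531.2 and 667.6 FPKM in 3-month-old and 1438 and 1147 FPKM in 18-month-old controls, 769.8 and 599.1 FPKM in 3-month-old and 1741 and 1616 FPKM in 18-month-old IOP retinas, and 653.1 and 766.3 FPKM in 4xIOP against 842.1 and 898 FPKM in its controls. Of 8 tested, 1 was called higher after a single IOP at each age, against 0.568% and 0.117% of all genes tested. It was Gfap, at 3.45 ± 0.40 at 3 months (limma adjusted p = 0.0271) and 3.37 ± 0.40 at 18 months (limma adjusted p = 0.0443). With size factors no gene was called at 18 months. In 4xIOP retinas 2 of 8, Gfap and Vim, were called higher, against 5.45%. Alternatives were other pseudocounts and limits, median-of-ratios size factors, the length trend removed with a spline of 5 degrees of freedom, voom, eBayes without a trend, a replicate block, only the libraries compared, the adjusted p alone, and each library left out. The fits and the recovery of tags were tested on simulated data. Promoter sequences and coordinates are from RefSeq (GRCm38.p6, the assembly of mm10), and overlaps from GENCODE.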

Additional observations from a re-analysis of the deposited data

How the results depend on the processing

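Of the recomputed counts of called members, 91 were within 1.5 times the reported count and 12 were not. At 3 months after IOP, 0 called members became 1 (Icam1) with a pseudocount of 0.1, with the length trend removed and with eBayes without a trend, and each library left out in turn gave 0 to 1, the 1 being Vcam1 without 3-month-old control replicate 2. At 18 months after IOP each library left out gave 0 to 1, the 1 being Vcam1 without 18-month-old IOP replicate 1. With age in controls, 3 became 1 with a pseudocount of 1, and 1 to 2 with a library left out, the 1 being Icam1 without 18-month-old control replicate 1 or 2. Between treated retinas of the 2 ages a library left out gave 1 to 3, the 1 being Icam1 without 3-month-old IOP replicate 1 or 2. In the 4xIOP comparison the count lay between 3 and 6 over all alternatives. A limit of 2 FPKM tests fewer members.

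A library left out leaves its group with 1, assumed to vary like the other groups. Signs turned where values were near 0. Icam2 at 3 months after IOP was -0.00097 with size factors and -0.0023 with the length trend removed, and at 18 months -0.037 to 0.47 with a library left out. The interaction of Icam1 was -1.04 with a pseudocount of 0.1, -0.054 with size factors, -1.97 with voom, and -0.23 to 0.26 with a library left out. That of Itgam was -0.076 with a pseudocount of 0.1, -0.14 with voom, and -0.33 to 0.66 with a library left out. With a library left out the interaction was -0.14 to 0.36 for Icam2, -0.0195 to 0.45 for Vcam1 and -0.85 to 0.10 for Itgb2, which was -1.65 with voom. The cause was not tested. Of the recomputed fold changes of single members 454 kept sign and call, 20 turned sign, 20 lost and 22 gained a call.

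Same-numbered treated and control libraries deviated in opposite directions (r = -0.275 at 3 months, -0.53 at 18 months and -0.29 in the repeated series), and the labels do not say that a number marks an animal. The replicate block gave 0, 0, 2, 3 and 4 called members for IOP at 3 months, IOP at 18 months, age in controls, age in treated retinas and 4xIOP, against 0, 0, 3, 3 and 4 without it. A crossed block, chosen after seeing the data, gave 3, 2, 3, 3 and 4.

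Size factors moved the median of all tested genes at 3 months after IOP from 0.13 to -0.05, with 20 genes called higher and 1 lower in place of 78 and 1, and at 18 months 0 in place of 16 and 1. With age in controls 1595 genes were called higher and 1590 lower, against 1061 and 1971 with size factors, and the 3 called members were called under both. Depth limits Selp and Itgal, with at most 32 reads in any single-IOP library.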

Other observations

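In the libraries of the highest Itgam and Itgb2 levels the microglia markers themselves were unequal. In 4xIOP retinas C1qb was at 29.8 and 30.5 FPKM and Aif1 at 9.67 and 9.24 FPKM, against 1.88 and 1.89 FPKM and 0.504 and 0.316 FPKM in their controls, while P2ry12, a receptor of resting microglia, was at 0.869 and 1.22 FPKM against 0.534 and 0.541 FPKM, and Siglech at 0.201 and 0.554 FPKM against 0.467 and 0.229 FPKM. In the first 18-month-old IOP library P2ry12 was at 6.96 FPKM and Siglech at 3.28 FPKM, against 1.46 and 0.231 FPKM in the second. These genes were chosen after their values were seen.

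Among single-IOP libraries the kinase gene Fgr, which signals from CD18 integrins, was below the limit for testing, and its treated and control libraries did not overlap at either age. Fgr was at 0.736 and 0.830 FPKM after IOP against 0.014 and 0.050 FPKM in controls at 3 months, and at 0.285 and 0.374 FPKM against 0.034 and 0.051 FPKM at 18 months. This gene was chosen after its values were seen and was given no test here.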
